A study of Harpegnathos saltator with 19 samples.

Results

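The resting transcriptome of the worker brain was read from 5 libraries, all those in which the ant had received the DMSO control, out of 19 in the series. They were chosen by their treatment label alone. Each library came from the central brain of 1 worker of the ant Harpegnathos saltator, dissected 10 h after an injection into the head just below the antennae. The other 14 libraries came from workers given 100 ng of 20-hydroxyecdysone (20E, 7 ants) or 100 ng of juvenile hormone III (JH3, 7 ants) in 5% glucose. All ants were labelled as workers, no age was stated in words, and the control ants are injected animals, not untouched ones. Whether the DMSO was also given in glucose was not stated. Sample descriptions carried 2 run labels: replicates 1, 2 and 3 of the DMSO group had the label 190514, and replicates 4 and 5 had 200212.

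An insect central brain holds neurons and the glia that wrap and feed them. Its neurons signal through fast transmitters, mainly acetylcholine, GABA and glutamate, and through neuropeptides, which are cut from longer precursors, stored in dense vesicles and read by receptors on other cells. The brain is also a target of the steroid 20E, which binds the receptor EcR together with its partner Ultraspiracle, and of juvenile hormone, whose response runs through the zinc finger factor Kr-h1. In this species, workers that lose their queen can become egg-laying reproductives. Gene symbols here are mostly those of the fruit fly, and the function given for a gene is that of the fly gene unless another species is named.

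The DMSO libraries held 21.7 ± 3.21 M reads on genes (SD, n = 5; range 18.3 to 25.5 M), against 18.4 ± 2.65 M in the 20E group and 17.1 ± 3.61 M in the JH3 group. The median gene with a mean of at least 1 FPKM had 756 reads. FPKM divides the fragments of a gene by its length and by the depth of its library, so levels of different genes are on a scale per length. The values of long and short genes also shifted against each other between the run labels, which limits how closely genes of unequal length can be compared. In a bulk sample, fewer cells of a type and less RNA per cell cannot be told apart, and this holds for every level below. No pair of DMSO libraries was alike within counting noise, and across genes of at least 1 FPKM their Spearman correlations ran from 0.876 to 0.975.

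Of 14001 genes in the table, 11240 (80.3%) had a mean of at least 0.1 FPKM over the 5 ants, 9074 (64.8%) reached 1 FPKM, 3657 (26.1%) reached 10 FPKM and 208 (1.49%) reached 100 FPKM. The median gene had a mean of 3.49 FPKM. Single ants were close to each other: between 8883 and 9026 genes reached 1 FPKM in an ant, and between 179 and 236 reached 100 FPKM. Membership varied more than these totals, since 8329 genes reached 1 FPKM in every ant and 1261 others did so in some ants but not all. At the top, 128 genes passed 100 FPKM in all 5 ants and 185 in only some of them. A further 1185 genes were listed at 0 in every DMSO library. Of these, 784 were at 0 in all 19 libraries, and 5 of the other 401 reached 1 FPKM in a hormone-injected ant.

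Protein-coding genes held 95.8 ± 1.19% of the summed FPKM (SD, n = 5), and 8609 of 12657 reached 1 FPKM. Long noncoding RNAs held 2.68 ± 0.479%, with 350 of 1029 genes at 1 FPKM. Annotated pseudogenes held between 0.435% and 2.62% in single ants, a wider relative range than either of the other classes.

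Expression was concentrated on few genes. The 10 most abundant genes held 8.70 ± 2.55% of the summed FPKM (SD, n = 5), with 8.28%, 12.3%, 9.68%, 7.79% and 5.43% in replicates 1 to 5. The 100 most abundant held 25.5 ± 3.27% and the 1000 most abundant 57.6 ± 2.79%. Ranked by their mean, 644 genes accounted for 50% of all FPKM and 4777 for 90%.

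**Figure D1:**
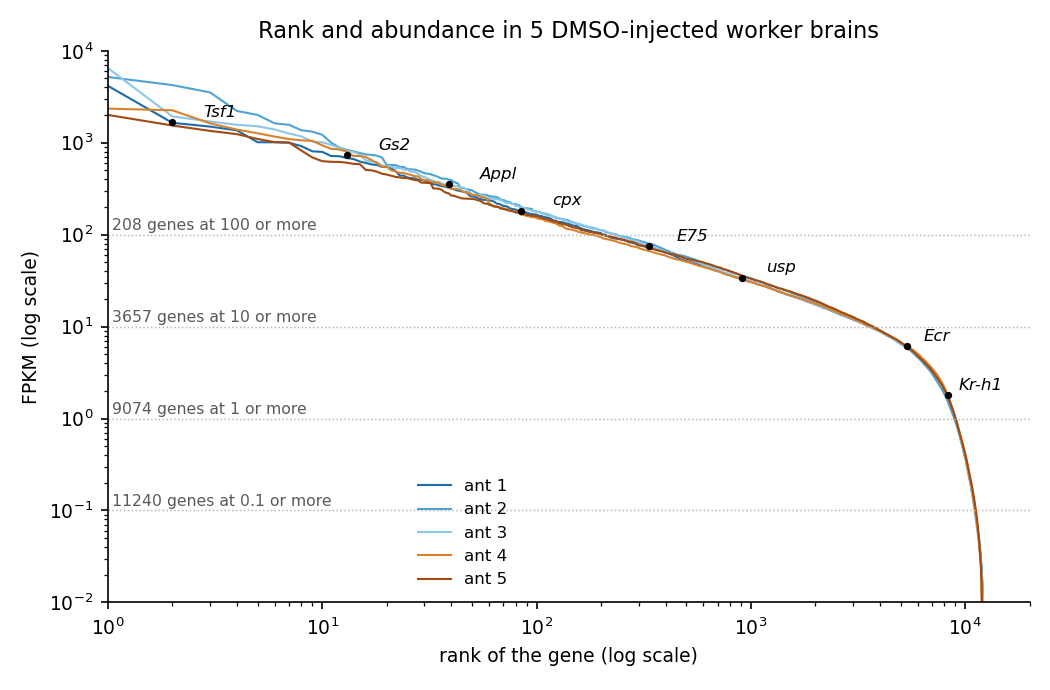
FPKM of every gene against its rank, both on log scales, with 1 line for each of the 5 ants; black points mark 8 named genes at their mean and dotted lines the 4 levels with the number of genes whose mean reached them. The lines part among the top ranks, where the most abundant gene lay between 2005 and 6490 FPKM, and run together below about 100 FPKM.

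The size of the detected transcriptome in the control ants was compared with that of the hormone-injected ants. DMSO libraries had 8984 ± 57.6 genes at 1 FPKM (SD, n = 5) and the others 9036 ± 102 (n = 14), a difference after removal of run means of -53.9 genes. An exact two-sided permutation test within run labels, over 3780 arrangements, gave p = 0.251 and an adjusted p of 0.628 over the 4 levels and the share of the top 100 genes. At 0.1, 10 and 100 FPKM the differences were -46.6, -11.6 and -7.89 genes, with exact adjusted p of 0.628, 0.775 and 0.775. The 100 most abundant genes of each library held 26.0 ± 3.17% of the FPKM in DMSO ants and 26.6 ± 4.23% in the others, with an exact adjusted p of 0.808. None of the 5 measures passed 0.05, and 0 of them had an unadjusted p under 0.05. DMSO libraries were deeper by 3.51 M reads on the same scale (exact permutation p = 0.0386). The read unit of JH3 replicate 2 is in doubt, because reads were read back from the steps of the FPKM values. At double its 13.04 M reads the JH3 mean was 18.9 ± 4.46 M and the difference 2.33 M (exact permutation p = 0.157). The part of depth in the gene numbers was not tested.

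The most abundant gene of the control brain was LOC112588553, a protein-coding gene without a symbol, named here after its values were seen. It read 4157, 5185, 6490, 2348 and 2005 FPKM in replicates 1 to 5, so its 3 values of run 190514 lay above both values of run 200212. Second came Tsf1, a transferrin that binds iron and is secreted into the haemolymph, at 1646, 2004, 1930, 1389 and 1344 FPKM (mean 1662 ± 302). Its order among ants was the same split by run. The next gene, LOC105190786, also without a symbol, was far steadier, with 1535 ± 96.9 FPKM and a CV (SD over mean) of 6.31%.

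Of the 208 genes at 100 FPKM or more, 119 had a symbol, and the 20 highest of these came from a few kinds of gene. Metabolism of nervous tissue was represented by the glial glutamine synthetase Gs2, at 732 ± 107 FPKM (SD, n = 5), by the mitochondrial ADP/ATP carrier Ant, at 574 ± 112, by the vacuolar proton pump subunit Vha16, at 513 ± 44.5, and by the arginine kinase Argk1, which buffers ATP, at 473 ± 57.7. Protein turnover and synthesis gave the polyubiquitin gene Ubi-p63E (688 ± 100.3 FPKM), the poly(A)-binding protein pAbp (340 ± 45.5), the elongation factor EF1a-F2 (303 ± 54.6) and RpL10 of the large ribosomal subunit (285 ± 92.7). Neuronal regulators were igl, which binds calmodulin (415 ± 20.9 FPKM), the RNA-binding protein mub (405 ± 58.3), the adaptors 14-3-3epsilon (492 ± 83.8) and 14-3-3zeta (373 ± 55.0), and the amyloid precursor-like protein Appl (353 ± 32.0). The lipoprotein precursor apolpp, which carries lipid in haemolymph, stood at 298 ± 108 FPKM. The remaining named genes of the 20 were spab (898 ± 129 FPKM), bnb (419 ± 151), uzip (289 ± 29.3), the odorant-binding protein Obp10 and apd-3l. Within this set, igl had the smallest CV, 5.04%, and apd-3l the largest, 134%.

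Obp10 belongs to a family of small secreted proteins known from insect antennae. In these brains it read 805, 834, 1012, 392 and 367 FPKM, ranking seventeenth of all genes, with the values of run 190514 above those of run 200212. Of 5 genes of olfactory and gustatory organs, Orco, the shared odorant co-receptor, was near 0 and had a mean of 0.00532 FPKM and was listed at 0 in 3 ants. Ir76b and Ir25a, co-receptors of ionotropic receptors, were measured at 7.49 ± 2.13 and 4.47 ± 1.31 FPKM, above the median gene. Ir8a and Obp1 had 0.485 ± 0.205 and 0.467 ± 0.277 FPKM.

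Genes that define neurons were abundant in every ant. All 28 measured members of the neuron list reached 1 FPKM, against 64.8% of all genes, and 27 reached 10 FPKM, against 26.1%. The lists hold only genes with a symbol, and of all 4117 of these 3815 reached 1 FPKM and 1848 reached 10 FPKM. These shares are the background for the counts of every list below. The neuron list had a median of 52.1 FPKM. Next to Appl, the highest were the complexin gene cpx, a clamp of vesicle fusion, at 182 ± 8.90 FPKM (SD, n = 5), the synaptic vesicle protein nSyb at 162 ± 13.6, and Syn, which tethers vesicles, at 137 ± 35.2. The kinesin unc-104, which carries synaptic vesicle precursors along axons, had 127 ± 45.3 FPKM, the vesicle fusion protein Snap25 122 ± 11.6 and the calcium sensor Syt1 121 ± 18.3. cpx was the steadiest of the list, with 176, 195, 185, 182 and 172 FPKM and a CV of 4.89%. The most variable was stj, a calcium channel subunit, with 33.1, 37.8, 24.1, 50.7 and 85.0 FPKM and a CV of 51.5%. Its highest value, in replicate 5, was more than 3 times its lowest, in replicate 3.

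Glial genes had a lower median of 10.7 FPKM. Of 16 measured members, 15 reached 1 FPKM, against 64.8% of all genes, and 9 reached 10 FPKM, against 26.1%. Of the 4117 genes with a symbol, 3815 reached 1 FPKM and 1848 reached 10 FPKM, so the glial share at 1 FPKM was near theirs. Gs2, which turns glutamate into glutamine, read 665, 887, 793, 697 and 620 FPKM. The glutamate transporter Eaat2 had 201 ± 37.7 FPKM (SD, n = 5) and the GABA transporter Gat-a 54.1 ± 7.23. Genes of similar symbol outside the list, Eaat-2 and Gat-1B, had 76.4 ± 10.6 and 184 ± 31.5 FPKM. repo, the homeodomain factor that defines glia in the fly, read 32.6, 46.6, 37.4, 33.9 and 36.1 FPKM, within 1.5 times of each other. The ratio of Appl to repo stayed between 8.10 and 10.9 in single ants. Cyp4g15 was at or near 0 in all ants, with a mean of 0.00819 FPKM, and the sugar transporter Tret1 had the largest CV of the list, 43.2%.

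The genes of transmitter synthesis and transport covered all the main transmitter systems. Among the 18 measured list members the choline transporter ChT was highest, at 115 ± 39.8 FPKM (SD, n = 5). The vesicular monoamine transporter Vmat followed at 105 ± 9.25. Gat-1B, which is not on the list, stood above both at 184 ± 31.5 FPKM. Gad1, which makes GABA, read 52.8, 78.3, 56.3, 90.9 and 66.9 FPKM, and ChAT, which makes acetylcholine, read 36.6, 32.1, 31.6, 51.0 and 47.8. Gad1 was the higher of the pair in all 5 ants, with a ratio of ChAT to Gad1 between 0.409 and 0.715. The vesicular glutamate transporter VGlut stood at 10.7 ± 3.85 FPKM, below both. Ddc, which makes dopamine and serotonin from their precursors, had the largest CV of the list, 57.1%, from 8.46, 30.9, 7.57, 18.3 and 17.4 FPKM.

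All 35 measured transmitter receptor genes reached 1 FPKM, 25 reached 10 FPKM, and their median was 17.3 FPKM. Of the 4117 genes with a symbol, 3815 and 1848 reached these levels. Inhibitory chloride channels led the list. The glutamate-gated channel GluClalpha read 145, 194, 131, 186 and 236 FPKM, and the GABA-gated channel Rdl read 88.9, 103, 83.5, 103.9 and 160. Both were highest in replicate 5 and lowest in replicate 3. The other GABA-gated subunits were far lower, Lcch3 at 2.79 ± 0.540 FPKM and Grd at 1.18 ± 0.318, so that Rdl exceeded Lcch3 by 30.0 to 50.1 times in single ants. The muscarinic receptor mAChR-A (67.8 ± 16.8 FPKM) and DopEcR (63.3 ± 5.85), a membrane receptor for both dopamine and ecdysone, came next. Nicotinic acetylcholine receptor subunits spread from nAChRalpha6 at 54.3 ± 14.3 FPKM to nAChRalpha4 at 8.27 ± 2.17. Nmdar1, the obligate subunit of the NMDA receptor, was above Nmdar2 in all 5 ants, by 3.91, 4.11, 4.62, 2.27 and 1.61 times. The 3 ratios of run 190514 lay above both of run 200212, and Nmdar2 is the longer gene.

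Among 29 measured ion channel genes, 25 reached 1 FPKM and 18 reached 10 FPKM, with a median of 22.5 FPKM. Of the 4117 genes with a symbol, 3815 and 1848 reached these levels. The calcium channel subunit Ca-beta was highest, at 132 ± 26.3 FPKM (SD, n = 5), followed by the potassium channel Shal (94.5 ± 11.4) and the calcium channels cac (54.0 ± 18.1) and Ca-alpha1D (51.8 ± 21.3). The sodium channel para, which carries the action potential, read 27.9, 33.4, 21.8, 41.3 and 60.5 FPKM. The 4 members under 1 FPKM were the sensory channels nan, iav and trpl and the leak channel Ork1. Genes of learning and the mushroom bodies, the memory centres of the insect brain, were also high, with a median of 52.3 FPKM over 20 members. Beside mub and 14-3-3zeta, the protein kinase A subunits Pka-R2 and Pka-C1 both stood at 145 FPKM (SD 34.9 and 57.6). RyR, a calcium release channel, had the largest CV of that list, 61.1%, with 33.6, 43.1, 25.4, 74.2 and 111 FPKM.

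**Figure D2:**
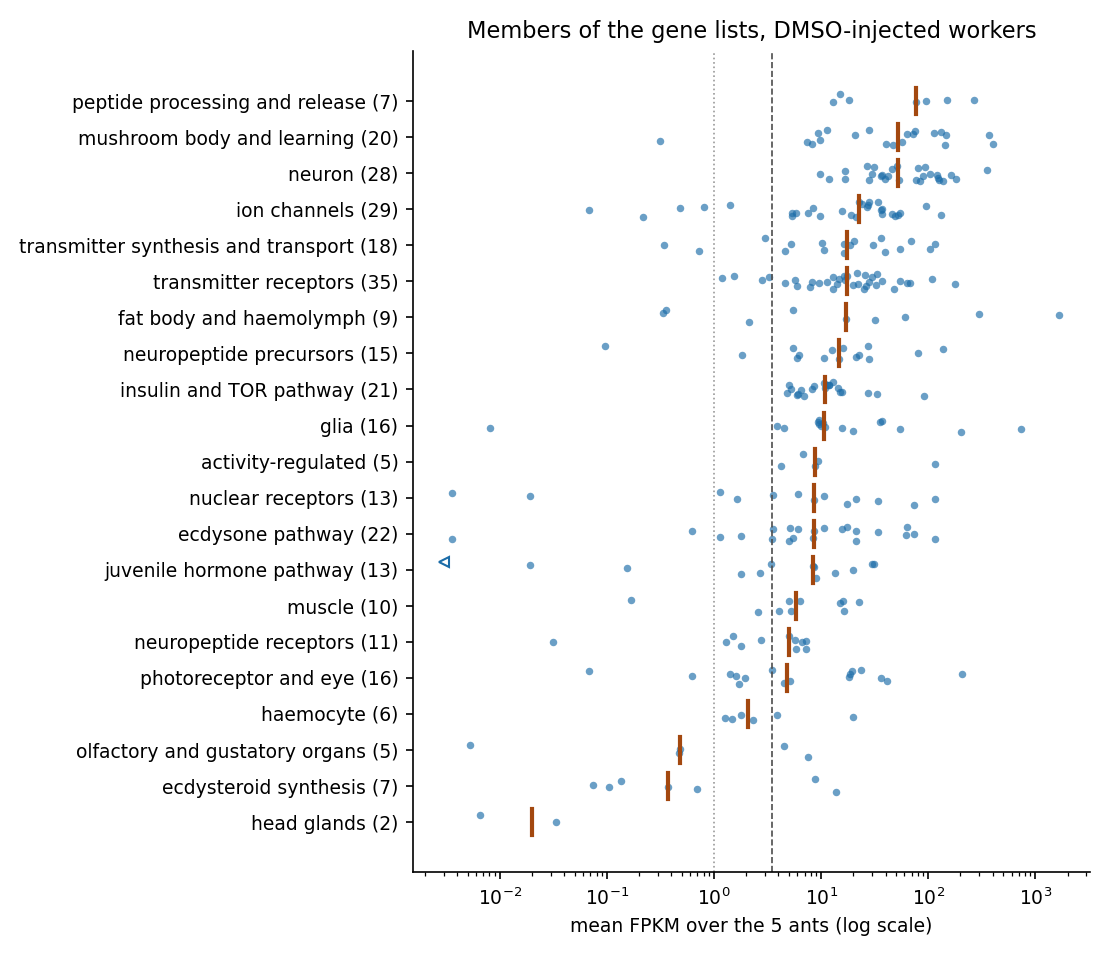
Mean FPKM over the 5 DMSO-injected ants (log scale) for every measured member of 21 gene lists, with the number of members in brackets; orange bars mark the list medians, the dotted line 1 FPKM, the dashed line the median of all genes (3.49 FPKM), and an open triangle a gene listed at 0. The lists of neurons, ion channels, learning, transmitters and peptide processing had medians from 17.3 to 76.6 FPKM. Neuropeptide precursors had 14.7, activity-regulated genes 8.74, neuropeptide receptors 5.04 and ecdysteroid synthesis 0.371.

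Machinery that makes and releases neuropeptides was among the most abundant in the tissue. All 7 members of the list exceeded 10 FPKM, against 1848 of the 4117 genes with a symbol, with a list median of 76.6 FPKM. 7B2, the chaperone of the prohormone convertase amon, read 262, 306, 271, 253 and 251 FPKM, and amon itself, which cuts precursors, read 136, 174, 115, 159 and 161. IA-2, a dense vesicle protein, had 95.1 ± 24.4 FPKM (SD, n = 5) and Cadps, which primes dense vesicles, 76.6 ± 30.4. The amidating enzyme Phm and the carboxypeptidase svr were lower, at 15.1 ± 2.25 and 18.1 ± 2.76 FPKM.

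Of 15 measured neuropeptide and peptide hormone precursors, 14 reached 1 FPKM, 10 reached 10 FPKM, and their median was 14.7 FPKM. Of the 4117 genes with a symbol, 3815 and 1848 reached these levels. Dh31, a diuretic hormone related to calcitonin, was highest, at 166, 138, 121, 138 and 120 FPKM. SIFa, a feeding and mating peptide, read 106, 93.2, 76.0, 46.2 and 75.9. The 2 precursors kept first and second rank in every ant. Myosuppressin (Ms) had 28.1 ± 5.42 FPKM (SD, n = 5), corazonin (Crz) 27.4 ± 8.84, Nplp1 22.6 ± 4.49 and the sulfakinin precursor Dsk, a satiety peptide, 21.0 ± 7.10. Corazonin, a peptide tied to worker behaviour in this species, read 35.1, 24.6, 38.0, 22.0 and 17.1 FPKM, lowest in both ants of run 200212.

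Lower in the list, ITP (15.9 ± 2.33 FPKM), allatostatin A (Apime-ASTA, 14.7 ± 3.96), Dh44 (12.6 ± 1.55) and the insulin-like peptide ILP-2 (10.6 ± 1.97) exceeded 10 FPKM. CCHa1, NPF, Pdf and Eth lay between 1.81 and 6.25 FPKM on their means. Pdf, the output peptide of circadian clock neurons, was the most variable, with 2.25, 12.6, 1.78, 5.69 and 4.81 FPKM and a CV of 80.1%. Dh44 was the steadiest, with a CV of 12.3%. Pban, the precursor of pyrokinin-type peptides, was the only member under 1 FPKM, at 0.0968 ± 0.0587.

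None of the 11 measured neuropeptide receptor genes reached 10 FPKM on the mean, against 26.1% of all genes and 1848 of the 4117 with a symbol. Of the 11, 10 reached 1 FPKM, and the median was 5.04 FPKM. The highest were Dh31-R (7.24 ± 1.78 FPKM; SD, n = 5), AstA-R1 (7.19 ± 1.31), Pdfr (6.61 ± 1.84) and rk (5.78 ± 2.25), the receptor of bursicon. Neighbours in that order differed by less than their SD. Per length, Dh31 exceeded Dh31-R by 24.4, 22.6, 23.3, 16.3 and 12.6 times, with the ratios of run 190514 above those of run 200212, and SIFa exceeded SIFR by 18.6 to 201 times. Of 24 ratios between genes that were computed in all ants, 12 had no overlap between the runs. This was near the share of single genes with no overlap, 55.0% of 9244 tested. The allatostatin A precursor was only 1.21 to 2.98 times above AstA-R1, and Pdf lay below Pdfr in 4 of 5 ants. The corazonin receptor Crzr was near the limit of detection, with 0.0475, 0, 0, 0.0346 and 0.0757 FPKM, while its ligand was among the 4 highest precursors.

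**Figure D3:**
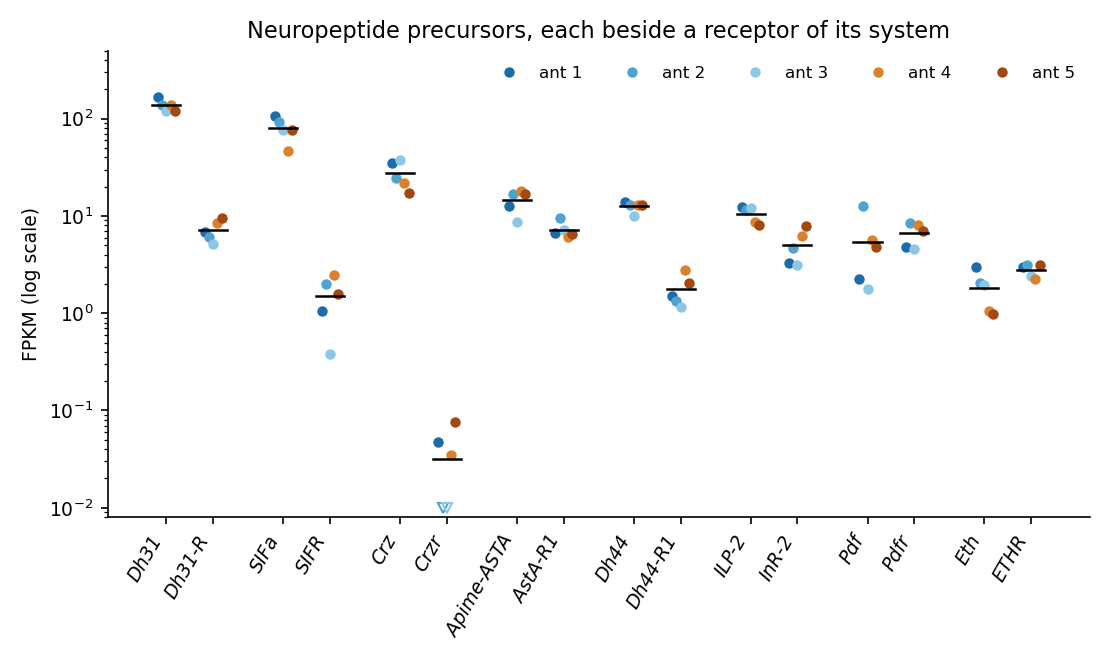
FPKM (log scale) of 8 peptide precursors, each followed by a receptor of its system, with a point for each of the 5 ants (blue shades run 190514, orange shades run 200212), a bar at the mean, and open triangles at the lower edge for ants listed at 0. Dh31, SIFa and Crz stand more than 12 times above their receptors in every ant with a receptor value, while Pdf and Eth overlap Pdfr and ETHR.

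Genes of the ecdysone response were mostly above 1 FPKM in the control brain, while most genes of ecdysteroid synthesis were below it. Of 22 measured pathway members, 20 reached 1 FPKM and 10 reached 10 FPKM, with a median of 8.51 FPKM. Of the 4117 genes with a symbol, 3815 reached 1 FPKM and 1848 reached 10 FPKM, so both shares of the pathway were near theirs. Of the receptor pair, usp read 31.2, 33.8, 28.1, 35.1 and 41.9 FPKM and Ecr 5.67, 5.29, 6.23, 6.81 and 6.67. usp was 4.50 to 6.4 times above Ecr in single ants, and Ecr varied little, with a CV of 10.6%. The orphan nuclear receptor Hr38, which in the fly binds Ultraspiracle and is also induced by neuronal activity, was the highest of all nuclear receptors, at 92.3, 106, 61.2, 139 and 178 FPKM. Other activity-regulated genes, Jra and kay (the fly Jun and Fos) and CrebA, lay between 4.23 and 8.74 FPKM on their means.

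Early ecdysone targets followed. E75 read 64.7, 76.4, 64.0, 74.6 and 92.4 FPKM, Eip93F had 61.8 ± 18.4 (SD, n = 5), Eip74EF 21.3 ± 2.76 and br 5.48 ± 2.31. Among later-acting nuclear receptors, Hr3 had 17.6 ± 4.88 FPKM, ftz-f1 10.6 ± 3.64, Hr39 3.54 ± 1.38 and Hr4 1.148 ± 0.35. The ecdysone importer Oatp74D stood at 8.55 ± 3.13 FPKM and the steroid hydroxylase Cyp18a1, which inactivates 20E, at 0.620 ± 0.252. The remaining members, Hr96, Eip63E, chinmo, Blimp-1, rig and E23, had means between 3.46 and 21.0 FPKM, and Hr83 was listed at 0 in 4 ants. In the synthesis list only the cholesterol carriers Npc1a (13.7 ± 3.05 FPKM) and Start1 (8.82 ± 1.59) exceeded 1 FPKM. The enzyme genes nvd (0.695 ± 0.168 FPKM), sro (0.371 ± 0.0532), dib (0.135 ± 0.0806), sad (0.104 ± 0.0655) and shd (0.0747 ± 0.0470) were all below it. Each of these enzyme genes had reads in all 5 ants.

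Of 13 measured juvenile hormone genes, 10 reached 1 FPKM, against 3815 of the 4117 genes with a symbol, with a list median of 8.34 FPKM. Enzymes of the mevalonate pathway, which feeds juvenile hormone synthesis, were led by Idi at 31.1 ± 8.03 FPKM (SD, n = 5), with Hmgs at 8.50 ± 1.31, Mvd at 8.34 ± 1.73 and Pmvk at 3.37 ± 0.860. Chd64 (29.8 ± 5.49) and Fkbp59 (19.7 ± 2.70), fly proteins reported to bind hormone response elements, and hry (13.5 ± 1.64), a hormone target in the fly, were steady. Kr-h1 was low, at 2.34, 1.49, 0.405, 3.09 and 1.63 FPKM, with a CV of 56.2%. jhamt, the methyltransferase that completes the hormone, split the ants: 4.77, 0.0550, 4.55, 0.0221 and 4.10 FPKM, near 0 in replicates 2 and 4. This gene is made in the corpora allata, glands behind the brain. Binding proteins Jhbp2, Jhbp16 and JHBP-1, added to the list after the table was seen, were at 0.154 FPKM, at 0.0193 FPKM and listed at 0.

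All 21 members of the insulin and TOR list reached 1 FPKM, as did 3815 of the 4117 genes with a symbol. The list had a median of 10.9 FPKM. Thor, the translation repressor 4E-BP, was highest and read 94.3, 112, 133, 54.4 and 64.7 FPKM, with all values of run 190514 above those of run 200212. Pdk1 (33.4 ± 6.80 FPKM; SD, n = 5), Rheb (27.3 ± 5.04) and the insulin-binding protein ImpL2 (15.6 ± 2.45) came next. The receptor InR-2 had the largest CV of the list, 40.8%, with 3.25, 4.65, 3.12, 6.26 and 7.94 FPKM.

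The label of the tissue was checked against markers of the cells that lie next to it, and part of the eye genes divided the ants. Arr2, the arrestin of photoreceptors, read 9.72, 361, 328, 323 and 6.70 FPKM. Arr1 read 0.666, 80.2, 54.9, 67.1 and 1.02 FPKM and the opsin Lop2, added after the table was seen, 2.27, 29.5, 28.4, 30.9 and 2.30. In these genes replicates 1 and 5 were low and replicates 2, 3 and 4 high, so this split did not follow the run label. Replicates 1 and 5 were the 2 lowest in 8 of 16 eye list members, a list that includes 2 members under 1 FPKM. The 8 include Arr2, Arr1 and Lop2, from which the split was read, so the count is a description. Of genes at 1 FPKM, 2.60% had this pattern, and of genes at 10 FPKM with a CV over 50%, 11 of 100. Another member, rdgB, was called higher in run 200212, at 33.3 against 16.8 FPKM on the run means. Over the whole eye list the summed level ran from 103.6 to 597 FPKM in DMSO ants and from 101 to 556 FPKM in hormone-injected ants. Galphaq, which the brain also uses, was steady at 36.3 ± 4.16 FPKM (SD, n = 5).

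HisCl1, a chloride channel gated by histamine, the transmitter of insect photoreceptors, had the largest CV of the transmitter receptors, 64.7%. It read 0.510, 2.57, 2.07, 2.08 and 0.430 FPKM, again low in replicates 1 and 5. Hdc, which makes histamine, read 16.1, 27.3, 22.3, 20.6 and 7.33 FPKM, lowest in the same ants but with a smaller spread. The summed level of the neuron list was 1931, 2313, 1877, 2291 and 2614 FPKM, lowest in replicates 3 and 1 and highest in replicate 5. That of the glia list was 1061, 1331, 1186, 1133 and 1113 FPKM, also lowest in replicates 1 and 5, within a much narrower range than the eye list. The part of eye tissue in other differences between these ants was not tested.

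Muscle genes were uneven between ants. Of 10 measured members, 9 reached 1 FPKM and 4 reached 10 FPKM, against 3815 and 1848 of the 4117 genes with a symbol. The list had a median of 5.80 FPKM, above the 3.49 FPKM of all genes, and summed to between 75.5 and 125 FPKM. The muscle myosin light chain Mlc2 read 14.8, 2.21, 2.45, 10.6 and 1.87 FPKM and Mlc1 30.8, 9.55, 9.53, 20.3 and 10.7, both highest in replicates 1 and 4. flr and Actn, which act on actin in many cells, had CVs of only 7.38% and 9.91%. The haemocyte list summed to between 25.0 and 36.4 FPKM, most of it from drpr, which glia also express, and the 2 head gland genes were at or near 0, with a highest mean of 0.0333 FPKM. In the fat body and haemolymph list, Tsf1 and apolpp were abundant in all ants, whereas the storage protein Hex70a read 0.0940, 0.166, 0.133, 1.62 and 8.63 FPKM. Vgn, named after its values were seen, read 0.187, 0.999, 0.359, 1.04 and 37.1 FPKM, so replicate 5 was highest for both. In hormone-injected ants the highest Vgn value was 13.1 FPKM with 20E (median 0.464, n = 7) and 131 FPKM with JH3 (median 2.70, n = 7).

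Of the 20 most variable genes with a mean of at least 10 FPKM, 6 were annotated pseudogenes and 14 were protein-coding, and 4 of these had a symbol, namely apd-3l, Cpr97Ea, Arr1 and Arr2. apd-3l, whose symbol is that of the apidermin family of honey bee cuticle proteins, read 277, 4235, 73.7, 2252 and 48.1 FPKM, a spread of 88.0 times. Cpr97Ea, of a family of chitin-binding cuticle proteins, read 7.44, 31.6, 1.4, 9.60 and 0.491. Both were highest in replicate 2 and then in replicates 4, 1, 3 and 5. In the hormone-injected ants apd-3l also spread widely, from 38.8 to 7783 FPKM with 20E and from 84.9 to 13749 with JH3. Arr1, Arr2 and Lop2 followed among genes with a symbol and a mean of at least 10 FPKM. Below that level Vgn and Hex70a had larger CVs, 205% and 173%.

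**Figure D4:**
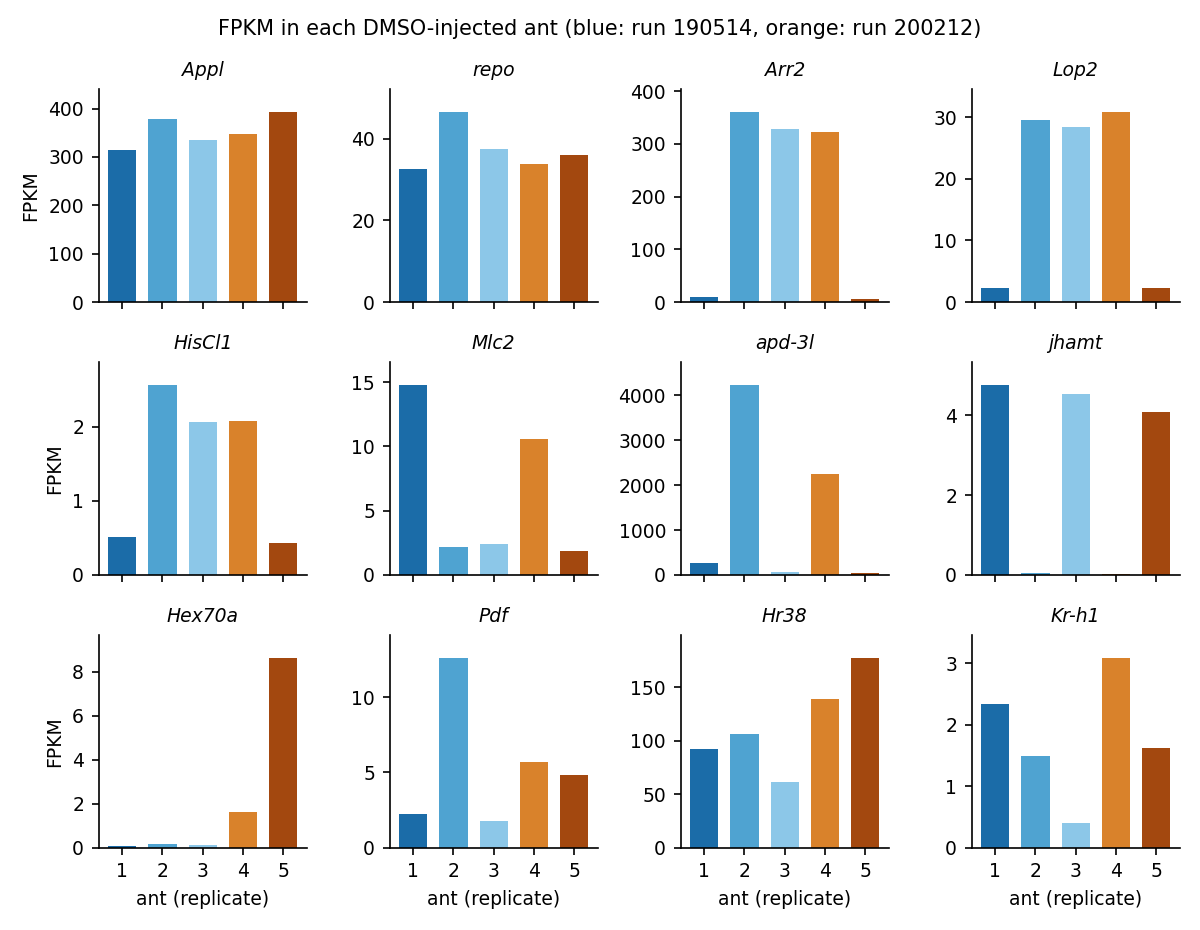
FPKM of 12 genes in each DMSO-injected ant, 1 bar per ant from 0 (blue shades run 190514, orange shades run 200212). Appl and repo were alike in all ants, Arr2, Lop2 and HisCl1 were low in ants 1 and 5, apd-3l was high in ants 2 and 4, and jhamt was near 0 in those same 2 ants.

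Spread between ants was otherwise moderate. The median CV was 21.5% over the 9074 genes at 1 FPKM or more, 18.8% between 10 and 100 FPKM and 19.2% from 100 FPKM up, and 507 genes (5.59%) exceeded 50%. The steadiest named genes of at least 10 FPKM were YME1L, a mitochondrial protease (16.9 FPKM, CV 1.93%), Nup58 of the nuclear pore (13.4 FPKM, 2.08%) and mts, the catalytic subunit of protein phosphatase 2A (32.2 FPKM, 2.44%); they were named after their values were seen. The median SD on the log2(FPKM + 0.5) scale was 0.285 over all 5 ants and 0.185 within run labels. Across genes, Spearman correlations between ants of the same run were 0.933 to 0.975 and between ants of different runs 0.876 to 0.936.

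The difference between the run labels was therefore measured within the DMSO group. Of 9244 genes tested, 1347 (14.6%) passed an adjusted p of 0.05 in limma with Benjamini-Hochberg adjustment, 651 (7.04%) higher in run 200212 and 696 (7.53%) lower, and 3426 had an unadjusted p under 0.05. All values of one run lay outside those of the other for 5084 genes (55.0%). Leaving out replicate 1, 3, 4 or 5 left 0 calls in limma (unadjusted p under 0.05 for 2388, 2461, 2459 and 1763 genes), and leaving out replicate 2 gave 2947 calls. Without replicate 4 or 5 a single library of run 200212 remained and was assumed to vary like the others. Scaling to total reads gave 538 higher and 1161 lower, around a median shift of -0.15 on the log2 scale.

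Among called genes with a symbol, the largest rises in run 200212 were Hex70a (log2 change 2.80 ± 0.602, SE) and 4 genes of very large proteins. These were shot, which links actin and microtubules (1.68 ± 0.316; 13.5 against 43.5 FPKM on the run means), Msp300, which anchors nuclei (1.59 ± 0.251), kug, an atypical cadherin (1.58 ± 0.307), and Dhc1, a dynein heavy chain (1.47 ± 0.290). Their adjusted p in limma lay between 0.0344 and 0.0413. Among the largest falls were snsl, by 2.50 ± 0.582 on the log2 scale, RpL39, by 1.39 ± 0.193, IFT46, by 1.34 ± 0.231, and Obp10, by 1.21 ± 0.166. RpL39 read 142, 142, 204, 58.0 and 63.9 FPKM, with no overlap between runs.

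The run difference moved with gene length. Over the length quartile of tested genes that are shortest, the median log2 change from run 190514 to run 200212 was -0.32, with 404 genes called lower and 27 higher. Over the longest quartile it was 0.44, with 505 higher and 16 lower. Across the 9244 genes, Spearman's rho between length and change was 0.549, as a description, since these genes share the same 5 libraries. With an ant left out, rho was 0.454 to 0.616 and the median of the longest quartile minus that of the shortest 0.62 to 0.93, against 0.76 with all 5. The order of the ants was graded: the median of the longest quartile deviated from the mean of the 5 ants by -0.32 in replicate 3, -0.19 in replicate 1, -0.01 in replicate 2, 0.18 in replicate 4 and 0.35 in replicate 5. The same split by run was seen in the hormone-injected ants, where the longest quartile minus the shortest, against the mean of all 19 libraries, was below 0 in 6 of 6 libraries of run 190514 and above 0 in 8 of 8 of run 200212.

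**Figure D5:**
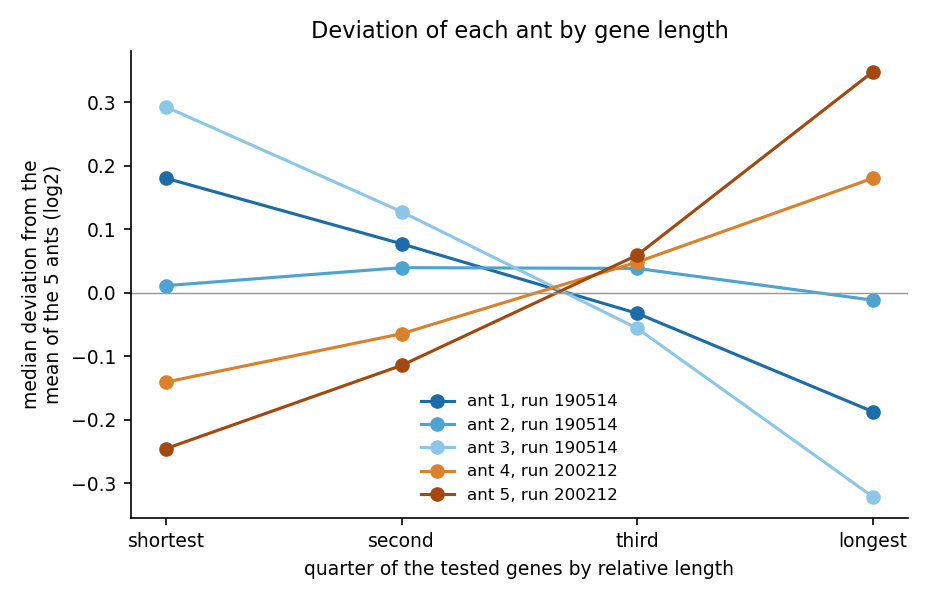
Median deviation of each DMSO-injected ant from the mean of the 5 ants (log2 FPKM + 0.5) in the 4 quartiles of tested genes by relative length, 1 line per ant (blue shades run 190514, orange shades run 200212). Ant 3 falls from 0.29 to -0.32, ant 5 rises from -0.25 to 0.35, and ant 2 stays close to 0.

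Lists of brain genes shifted with the run label to different degrees. The ion channel list, with a median length 3.65 times that of the tested genes, had a median log2 change of 0.51 from run 190514 to run 200212 and 4 of 25 members called higher. The transmitter receptors (2.33 times) had a median of 0.42 and 7 of 35 called higher, namely Dop1R2, Dop2R, Nmdar2, nAChRbeta1, GABA-B-R2, GABA-B-R3 and 5-HT7. The neuron list (3.33 times) had a median of 0.33, but its 2 of 28 members called higher, unc-104 and Cadps, were no larger a share than the 7.04% of all tested genes. In the ecdysone list (2.36 times) the median was 0.55 and 6 of 20 were called higher, namely Hr3, ftz-f1, Oatp74D, chinmo, Blimp-1 and Hr39. Over all tested genes the median was 0.01. Shift and length did not go together in every list. The fat body and haemolymph list, at 1.39 times, had the largest median, 0.83, with 3 of 7 members called higher and 1 lower, whereas the eye list, at 1.70 times, had 0.13 with 1 of 14 higher, and the glia list, at 1.48 times, 0.15 with 1 of 15 higher. The neuropeptide precursors, shorter than the median gene (0.771 times), had a median of -0.30 and 2 of 14 called lower, ILP-2 and CCHa1, against 7.53% of all. No member of the juvenile hormone list was called, at a median of -0.02. The parts of library preparation, RNA quality and the ants themselves in the run difference cannot be told apart.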

How the data were processed

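The authors deposited 1 table of FPKM values for 14001 genes and 19 libraries. The tools that the authors list in the submitters' processing notes are STAR, featureCounts, bcl2fastq and DESeq2, without versions. The genome build was not given in the sources used here. Per the labels' protocols, polyadenylated RNA of single brains was made into libraries. The values of all 14001 genes were whole multiples of 1 read within a tolerance of 0.02, which gave reads and a relative gene length. The 784 genes at 0 in every library are counted here but could not fail and gave no length. A gene with a single value above 0 could not fail either. Read numbers of at least 100 were odd in 42.2% to 44.2% of cases. The authors' scaling was 0.898 to 1.12 times that by total reads in DMSO libraries, relative to the median library. FPKM summed to 163812 to 186726 per DMSO library.

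Symbols came from RefSeq (Hsal_v8.6), which matched 13989 identifiers; 4117 genes had a symbol. Runs were compared with limma 3.58.1 (R 4.3.3) on log2(FPKM + 0.5), with a trended prior, over genes with 1 FPKM in at least 2 of the 5 libraries, at an adjusted p of 0.05, two-sided. Folds of genes near 1 FPKM are understated on this scale. Scripts were tested on simulated data. Python 3.11.15, pandas 2.3.3 and matplotlib 3.10.9 were used. Replicates are separate ants per the labels. The p-values set a difference between groups of ants against the spread between ants.

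The members and lists were chosen with earlier results of these data known, and 6 list members were added after the table was seen. Named by rule were the 20 most abundant genes with a symbol, of each of 21 lists the 4 highest members and those with extreme CV, all ecdysone, juvenile hormone and neuropeptide members, the 5 most variable genes and the 5 largest run changes each way. Other genes were named after their values were seen. Some genes that the rule names are not reported here.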

Additional observations from a re-analysis of the deposited data

Results flagged for a closer look

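Among 157 results of the 5 DMSO ants, 9 had 1 ant set apart from the other 4 by more than Dixon's critical share of the range, 0.71, and chance gives about 1 in 20. In replicate 5, Rdl was high (gap over range 0.733; 160 FPKM against at most 103.9), as were Eip93F (0.795; 94.1 against at most 57.1), shaker, a potassium channel (0.858; 33.2 against at most 27.1), and Hex70a (0.821; 8.63 against at most 1.62). In replicate 2, Argk1 was high (0.8004; 573 FPKM against at most 460) and fewest genes reached 1 FPKM (0.811; 8883 against at least 8999). In replicate 3, Dh44 was low (0.743; 9.93 FPKM against at least 12.97). For a pair of near-absent genes only 1 ant had reads, yellow-g in replicate 2 (1.0; 0.0330 FPKM) and Hr83 in replicate 3 (1.0; 0.0178 FPKM), with the other 4 ants listed at 0. Replicate 5 was also the ant with the highest values of long genes, and whether this bears on Rdl, Eip93F and shaker was not tested.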

How the results depend on the processing

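Gene numbers per level stayed within 1.5 times under the median, scaling to total reads and each left-out ant, except that TPM scaling put 8379 genes at 10 and 2145 at 100, because FPKM sums to far less than TPM does. Leaving out each ant gave 11198 to 11258, 9068 to 9093, 3638 to 3682 and 202 to 218 genes at the 4 levels, and a share of the 10 most abundant genes of 8.07% to 9.52%. Run calls numbered 424 with no filter on FPKM, 4754 as the run term over all 19 libraries, and 0 to 2947 with an ant left out. In the comparison with hormone-injected ants, 0 of 55 alternatives passed an adjusted p of 0.05. The nearest were at 1 FPKM, with fewer genes in DMSO ants: without 20E replicate 6 and JH3 replicate 1 together (-64.8 genes, exact permutation p = 0.0114, adjusted 0.057) and against JH3 alone (-73.5 genes, exact p = 0.03, adjusted 0.15). Signs turned to 21.0 and 41.1 genes at 0.1 and 100 FPKM with TPM scaling and to 2.63 genes at 100 FPKM without 20E replicate 6 and JH3 replicate 1. Without each DMSO ant the 5 differences ran from -68.9 to -29.3, -63.2 to -28.7, -25.6 to 4.39 and -11.1 to -3.42 genes and from -1.63 to 0.475 percentage points. The cause of these changes was not tested. Deviations of same-numbered ants correlated at r from -0.378 to 0.407, over 0.1 in 5 of 15 pairs. Ants of different number were not compared, so these values cannot decide whether numbers pair ants. With the replicate block the differences were -67.0, -77.5, -5.9 and -1.8 genes and -0.489 points. The lowest exact permutation p was 0.0247 (1 FPKM, adjusted 0.123). Levels of 69 named genes moved by less than 1 SD in 476 of 483 alternatives, a count that says little about stability. The median, and the mean with 1 ant left out, lie within 1 SD by construction. Only scaling to total reads could move a level further. JHBP-1, at 0 in every ant, was counted as moved because its SD is 0. Depth limits genes under about 0.1 FPKM.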
